A study of Mus musculus with 6 samples.

Results

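Genes of glycolysis, the pentose phosphate pathway and the response to low oxygen were described in RNA sequencing libraries of CD11b-positive bone marrow cells from mice with and without the receptor of thyroid-stimulating hormone, encoded by Tshr. The genes are 36 symbols chosen by their known roles, and they matched 37 rows of the 54532 genes in the deposited table, because the symbol Aldoa has 2 rows. The cells were taken from tibias of mice aged 12 weeks and enriched with beads for CD11b, an integrin chain on myeloid cells. The titles give 3 libraries as Tshr+/+, the wild type, and 3 as Tshr-/-, with the mice numbered 1 to 3 in each genotype. A second label names the mutant animals a knockdown, and no promoter or cell type for the mutation is given. A further label, on both groups, names osteoclast differentiation as treatment with no time, and no culture step is described. Each numbered mouse was read as 1 animal, so the p-values measure only the spread between these libraries. The title of the study names AMPK, a kinase that senses energy supply, and osteoclasts, the bone-resorbing cells.

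Glycolysis splits glucose into pyruvate in the cytosol, and lactate dehydrogenase with a lactate exporter lets it run without oxygen. The pentose phosphate pathway branches off after the first step and supplies NADPH, which neutrophils use to make reactive oxygen, and ribose for nucleotides. When oxygen is low, the factor HIF-1 escapes hydroxylation by the EGLN enzymes and raises transcription of glucose transporters, most glycolytic enzymes and a set of other target genes. Neutrophils hold few mitochondria and live largely by glycolysis, and differentiating osteoclasts are known to use both glycolysis and respiration.

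The genotype labels were compared first with Tshr itself. Its level in FPKM (fragment counts divided by gene length and by library size, so that genes of different length can be compared) was 0.537, 0.552 and 0.405 in the Tshr+/+ libraries and 0.414, 0.297 and 0.00825 in the Tshr-/- libraries. These values came from 55, 55 and 45 fragments against 40, 25 and 1. The groups overlapped (two-sided exact permutation test of the group means, p = 0.2, where the smallest p of 3 against 3 libraries is 0.1), so the libraries labelled Tshr-/- 1 and 2 still held Tshr fragments, and every direction below refers to the labels. The sources used here do not give the part of the gene that the mutation removes. The libraries held 14698126 to 17976477 fragments. The divisor that served as library size in the FPKM differed from these totals. It was 1.08 times the total in Tshr+/+ 3, 1.12 times in Tshr-/- 3 and 0.939 to 0.994 times in the others. Itgam, which encodes CD11b, stood between 87.4 and 134 FPKM, 14 neutrophil markers held 9.56% to 12.4% of fragments. Markers of lymphoid cells were read as well. The 8 markers of B and plasma cells held 0.0273% to 0.0628% of fragments, led by the antibody gene Igkc at 164 to 561 FPKM. The B cell genes Pax5 and Ms4a1 stood at or below 0.151 FPKM. The 8 markers of T and NK cells held 0.00583% to 0.00933% of fragments and 63.2 to 98.0 FPKM in sum. Most of that sum was Nkg7 at 55.2 to 85.4 FPKM, while Cd3e stood at or below 0.0444 FPKM. Only 3 of these 8 reached 1 FPKM in at least 3 libraries, so the sum does not show by itself that T or NK cells were present. More fragments, 0.0567% to 0.153%, lay on 7 markers of basophils, mast cells and eosinophils, and 9 erythroid markers held 0.00525% to 0.0131%. Of 8 osteoclast markers, Mmp9, which neutrophils also make, stood at 815 to 1419 FPKM, Ctsk at 3.30 to 37.4 and Acp5 at 5.12 to 29.7, the latter pair highest in Tshr-/- 2. Calcr, Dcstamp and Ocstamp stood between 0 and 0.455 FPKM, and Atp6v0d2 and Oscar between 0.0654 and 1.16.

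The genes described here held 1.50% to 1.71% of the fragments in each library. Averaged over the 6 libraries, 14 of the 37 rows stood above 100 FPKM, 13 between 10 and 100, 5 between 1 and 10 and 5 below 1, and 15 were among the 1000 most abundant genes. Taldo1 and Pkm were the highest, with means of 489 and 457 FPKM. The lowest were Aldoc, the second row of Aldoa, Ankrd37, Pfkm and Pdk1, all below 1 FPKM on average. A filter of at least 1 FPKM in at least 3 libraries left 33 rows for testing and removed Pdk1, Pfkm, Aldoc and the second Aldoa row.

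**Figure D1:**
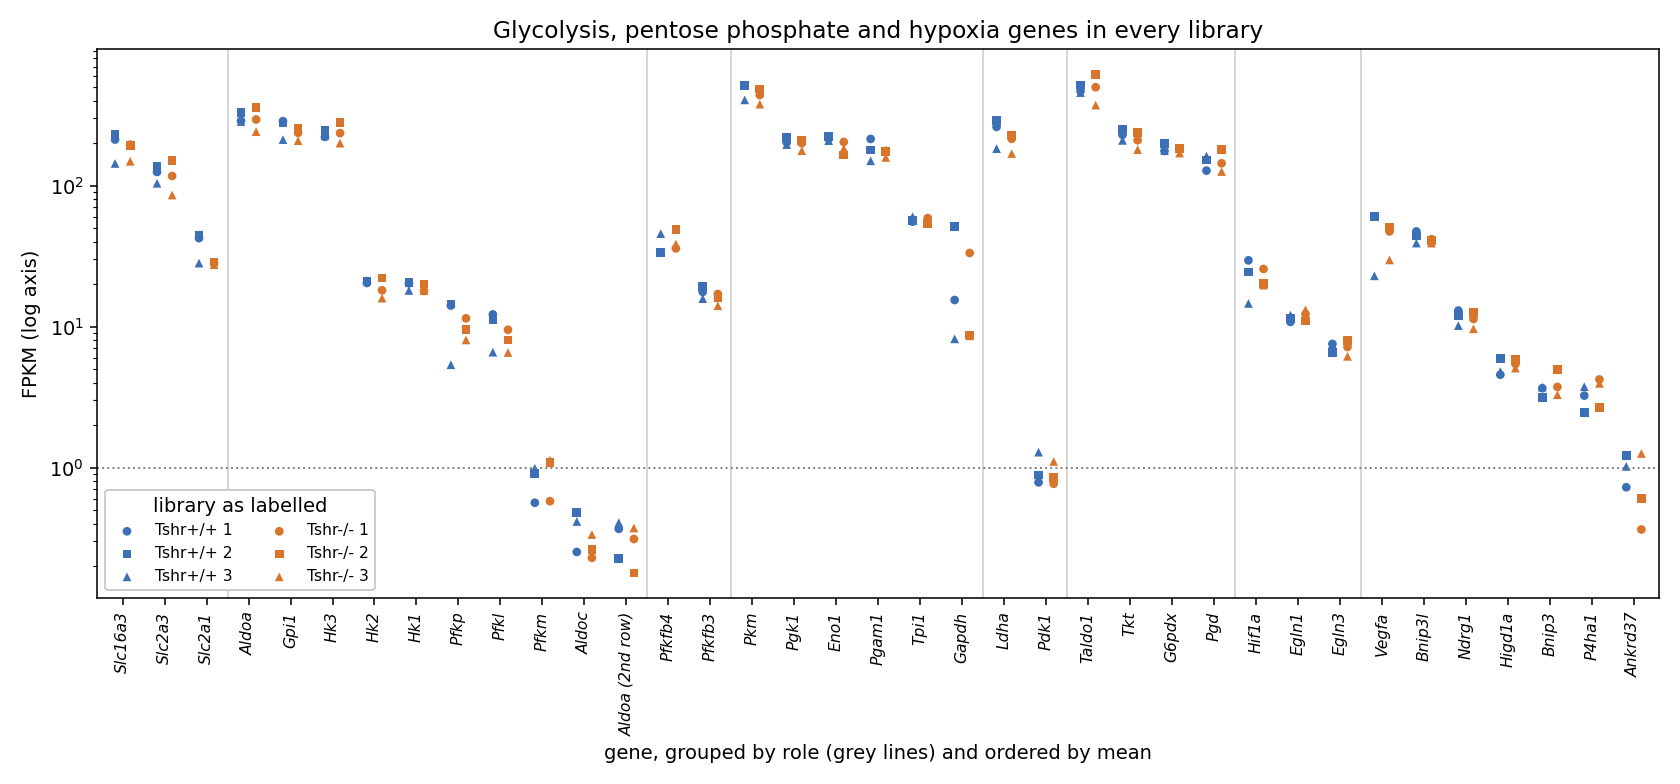
FPKM (log axis) of the 37 rows in every library, grouped by role from transporters on the left to hypoxia targets on the right; blue points are libraries labelled Tshr+/+, orange points Tshr-/-, and circles, squares and triangles are the libraries numbered 1, 2 and 3. The levels span from 0.179 FPKM for the second Aldoa row, under the dotted line at 1 FPKM, to 616 FPKM for Taldo1, and the colours overlap in every tested gene but Eno1.

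No gene of these pathways passed the test between the genotypes. On the scale log2(FPKM + 1), limma tested 10913 genes and called 0 (0%) at the 0.05 threshold after Benjamini-Hochberg adjustment, with 0.566 as the lowest adjusted p of any gene. At an unadjusted p under 0.05 limma counted 317 genes (2.9%) and 0 of the 33 genes described here. The adjusted limma p of each of the 33 was 0.9997. The difference, Tshr-/- minus Tshr+/+, was above 0 for 8 of the 33 and below 0 for 25 (75.8%), against 52.9% below 0 among all genes tested. The median difference was -0.08 on the log2 scale against -0.01 for all genes. This tilt rested on single libraries: without Tshr+/+ 2, or without Tshr-/- 3, the genes still tested were split evenly, 16 above and 16 below 0. With the libraries rescaled to equal totals, or by quantile scaling, 13 were above and 20 below. The groups did not overlap for 1 of the 33, Eno1, which was lower in the Tshr-/- libraries, while 739 of all genes tested (6.77%) did not overlap, 352 higher (3.23%) and 387 lower (3.55%).

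**Figure D2:**
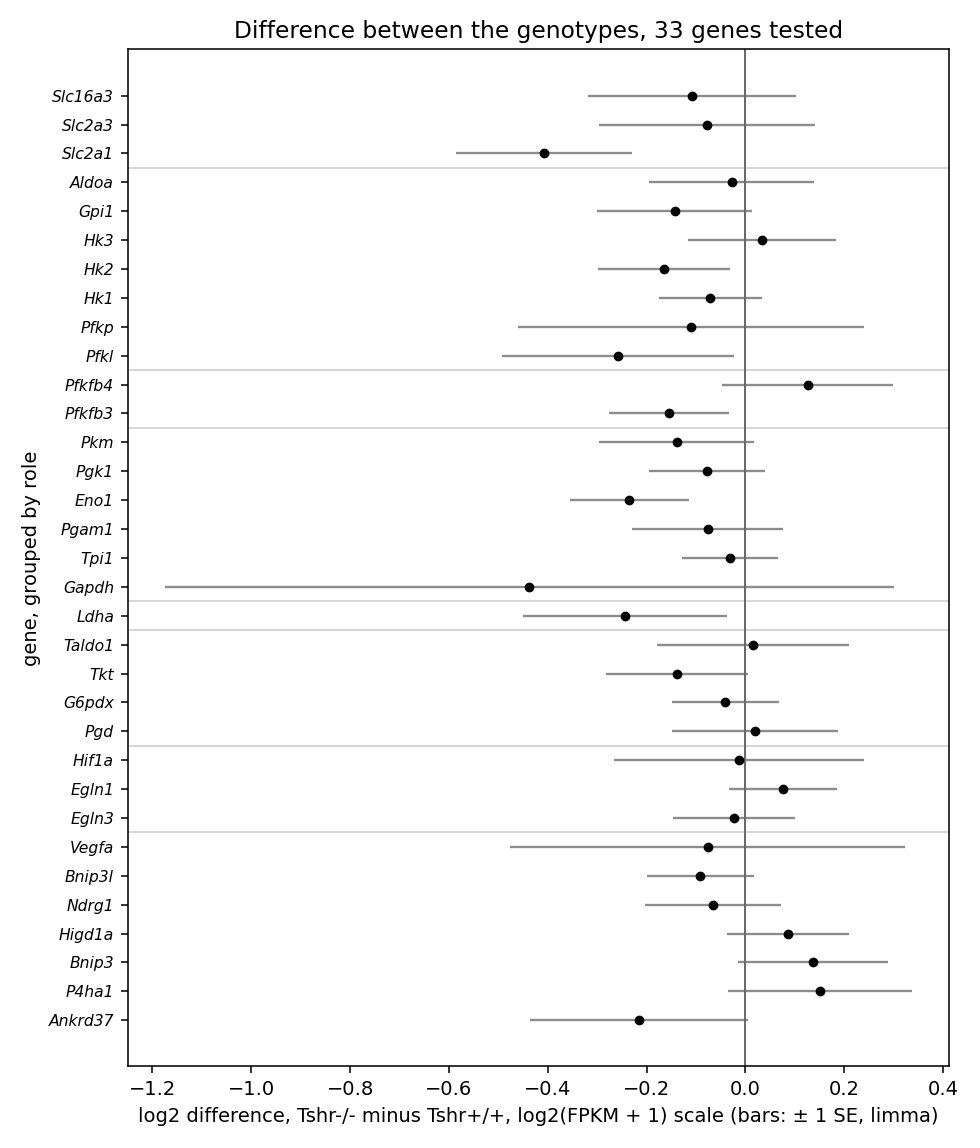
Difference between the genotypes on the log2(FPKM + 1) scale, Tshr-/- minus Tshr+/+, for the 33 tested genes in order of role; points are the differences and bars 1 standard error from limma. Slc2a1 at -0.41 and Eno1 at -0.23 lie farthest from 0 in units of their error, and Gapdh at -0.44 has the widest bar.

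Promoters were searched for the core of the hypoxia response element, because HIF-1 is known to act on many of these genes. The letters searched were ACGTG and GCGTG, with CACGT and CACGC for the other strand; CACGTG, an E-box that other factors read as well, contains a core on each strand. RefSeq windows of 300 bases (250 before to 50 after a start site, GRCm38.p6) were found for 33 of the 36 symbols and not for Bnip3l, Ndrg1 and Slc2a3. At least 1 core stood in at least 1 window of 31 of these 33 genes (93.9%). The shares were 46.7% of all 27025 genes with such RefSeq windows and 68.1% of the 7580 tested genes that were matched. Counted by window, 39 of 48 (81.2%) held a core against 43.8% of 32851 windows. An E-box stood in 5 of the 48 windows and in 7.15% of all windows. Gpi1 and Tpi1 had no core in these windows, which says only that the letters are not there, and a match is a description of the letters. Below are 5 examples, written 5′ to 3′ on the strand of the gene ending before the start in RefSeq and in the deposited table, with each core in capitals. Slc2a1 and Eno1 are shown as the genes with the smallest p, Vegfa and Pfkp for their large differences between libraries of one genotype, and Pgk1 as a classical HIF-1 target with a core on each strand. The stretches, cut from the windows, are chr4:119108495-119108710 (plus strand) for Slc2a1, chr4:150236458-150236707 (plus) for Eno1 and chr17:46032378-46032627 (minus) for Vegfa. Those for Pfkp and Pgk1 are chr13:6648778-6649021 (minus) and chrX:106186850-106187099 (plus).
Slc2a1: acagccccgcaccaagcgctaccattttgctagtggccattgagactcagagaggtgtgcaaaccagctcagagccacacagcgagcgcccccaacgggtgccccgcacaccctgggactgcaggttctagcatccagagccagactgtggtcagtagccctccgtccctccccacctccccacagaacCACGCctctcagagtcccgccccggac
Eno1: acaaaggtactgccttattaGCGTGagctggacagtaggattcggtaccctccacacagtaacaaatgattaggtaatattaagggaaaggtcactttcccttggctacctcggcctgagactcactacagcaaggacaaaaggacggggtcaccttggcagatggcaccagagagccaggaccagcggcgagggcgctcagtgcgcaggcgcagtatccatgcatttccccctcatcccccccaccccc
Vegfa: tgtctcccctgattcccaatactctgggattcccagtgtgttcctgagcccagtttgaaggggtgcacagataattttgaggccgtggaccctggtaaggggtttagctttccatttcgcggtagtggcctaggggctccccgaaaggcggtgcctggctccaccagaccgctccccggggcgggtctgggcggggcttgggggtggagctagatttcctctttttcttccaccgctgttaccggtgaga
Pfkp: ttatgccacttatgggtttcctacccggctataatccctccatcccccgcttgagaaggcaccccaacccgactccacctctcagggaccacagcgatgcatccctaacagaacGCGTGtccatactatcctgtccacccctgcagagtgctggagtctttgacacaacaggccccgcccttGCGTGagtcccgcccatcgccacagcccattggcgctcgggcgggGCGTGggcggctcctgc
Pgk1: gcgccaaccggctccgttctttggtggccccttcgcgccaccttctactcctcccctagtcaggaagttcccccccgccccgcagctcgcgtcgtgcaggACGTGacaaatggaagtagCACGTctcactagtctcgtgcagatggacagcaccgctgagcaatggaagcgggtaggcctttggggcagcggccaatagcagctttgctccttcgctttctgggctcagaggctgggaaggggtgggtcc
The stretches held 1 core for Slc2a1, 1 for Eno1, 0 for Vegfa, 3 for Pfkp and 2 for Pgk1. The full windows they were cut from held 2 for Slc2a1, 2 for Eno1, 0 for Vegfa, 4 for Pfkp and 2 for Pgk1. A second Vegfa window, at an internal start, held 2, and the further Eno1 windows held 2 each. Number of cores and the values below were not compared.

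Among the transporters, the lactate exporter Slc16a3 was the most abundant and the glucose carrier Slc2a1 had the smallest p of all the genes described. Slc2a1 (GLUT1, the basal glucose transporter of many cells) stood at 42.5, 44.3 and 28.2 FPKM in the Tshr+/+ libraries and at 28.0, 28.8 and 27.5 in the Tshr-/- libraries. The Tshr-/- libraries lay close together and beside Tshr+/+ 3, while Tshr+/+ 1 and 2 stood well above. The means were 38.3 ± 8.82 and 28.1 ± 0.648 FPKM (SD, n = 3 each). The difference on the log2 scale was -0.41 ± 0.18 (SE, limma adjusted p = 0.9997). Without Tshr+/+ 3 the difference was -0.61 (limma adjusted p = 0.171), without both libraries numbered 3 it was -0.59 (limma adjusted p = 0.0949), and with library weights limma gave an adjusted p of 0.0625; over all alternatives the adjusted p ran from there to 1. Each alternative given here with its own p removed Tshr+/+ 3 or gave it the lowest library weight, 0.247. The highest weight was 3.82, for Tshr-/- 1. Tshr+/+ 3 stood beside the Tshr-/- libraries, so these alternatives repeat 1 choice and are not separate evidence. With each library left out in turn, the difference ran from -0.61 to -0.29. Slc2a1 is at chr4:119108711-119137983 (GRCm38).

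Slc2a3 (GLUT3, the high-affinity glucose transporter of white blood cells) took between 74.7% and 83.9% of the FPKM summed over Slc2a1 and Slc2a3. Their relative Slc2a6, at 31.6 to 58.7 FPKM, is not in that sum. The levels of Slc2a3 were 125, 137 and 104 FPKM in the Tshr+/+ libraries and 117, 151 and 85.8 in the Tshr-/- libraries. The groups overlapped, and library 3 was the lowest in each. Slc16a3 (MCT4, which carries lactate out of the cell) stood at 212, 231 and 144 FPKM against 196, 194 and 149, again with library 3 lowest in both groups and with overlap. Its difference was -0.11 ± 0.21 (SE, log2). Slc16a3 made up between 97.4% and 98.1% of the FPKM summed with its relative Slc16a1.

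In upper glycolysis, the steps from glucose to triose phosphates, 1 of 7 tested genes was above 0 and 6 below, with a median of -0.11. Aldoa, the aldolase that cuts fructose bisphosphate, was the most abundant at 288, 329 and 285 FPKM in the Tshr+/+ libraries and 295, 358 and 242 in the Tshr-/- libraries. The Tshr-/- libraries enclosed the range of the Tshr+/+ libraries, and Aldoc added only 0.0731% to 0.146% of the FPKM of both aldolases. Hk2, the inducible hexokinase, stood at 20.4, 21.1 and 21.2 FPKM against 18.1, 22.1 and 15.9, a difference of -0.16 ± 0.13. Its Tshr+/+ libraries were close together and the Tshr-/- libraries lay on both sides of them. Pfkl, the liver-type phosphofructokinase subunit that commits sugar to glycolysis, stood at 12.2, 11.2 and 6.59 FPKM against 9.49, 8.02 and 6.55, a difference of -0.26 ± 0.24. Library 3 was lowest in both groups, at nearly one level.

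The other enzymes of upper glycolysis were chosen for description after their values were seen. Hk3, the hexokinase typical of myeloid cells, took between 84.5% and 87.0% of the FPKM summed over Hk1, Hk2 and Hk3 in every library. Its own levels were 222, 248 and 226 FPKM against 236, 282 and 200. Hk1 ranged only from 17.9 to 20.6 FPKM over all 6 libraries. Gpi1, which turns glucose phosphate into fructose phosphate, stood at 287, 278 and 212 FPKM against 237, 253 and 209, and both libraries numbered 3 were lowest in their group. Pfkp, the platelet-type phosphofructokinase subunit, stood at 14.1, 14.5 and 5.36 FPKM against 11.5, 9.50 and 8.04. In it Tshr+/+ 3 was the lowest library by a wide margin, and the highest library was 2.70 times the lowest. Pfkl and Pfkp shared the phosphofructokinase FPKM, between 41.7% and 50.9% for Pfkl and between 41.5% and 54.4% for Pfkp. Pfkm, the muscle-type subunit, took between 2.09% and 7.63%, on 31 to 76 fragments in a library, and lies over Senp1 on the opposite strand. Aldoc rested on 12 to 26 fragments and the second Aldoa row on 2 to 6.

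**Figure D3:**
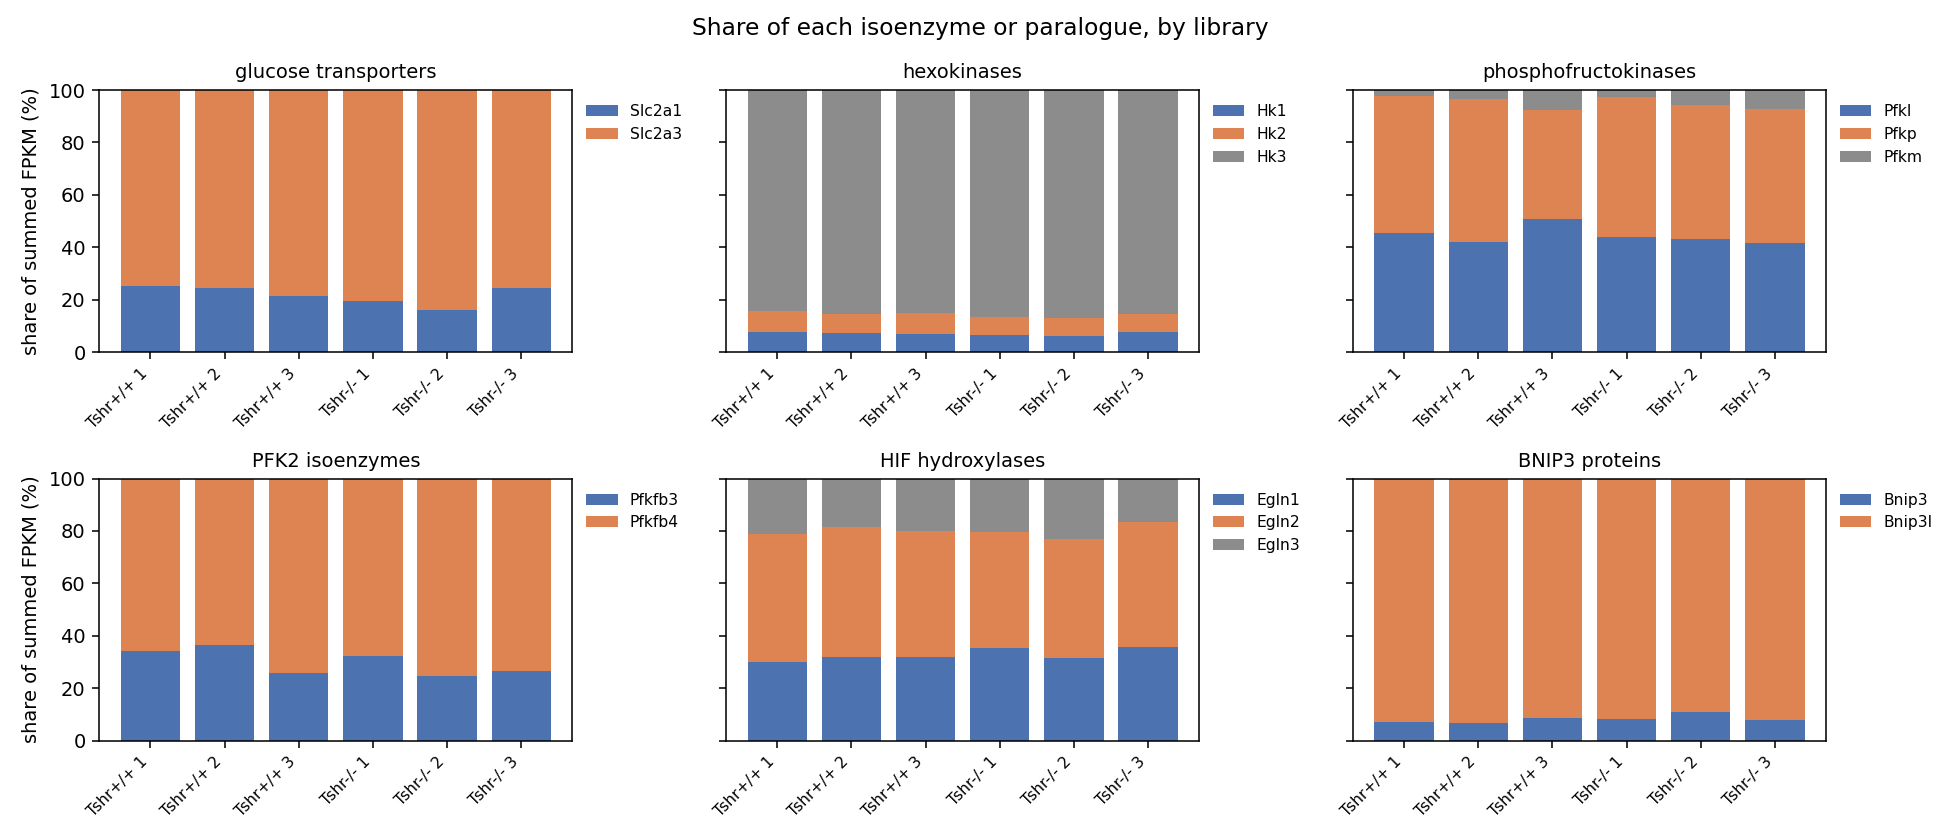
Share of each gene in the summed FPKM of the genes shown in its panel (percent), for 6 families in the 6 libraries. Each bar is 1 library and its segments add to 100%, and relatives that are not shown, such as Slc2a6, are left out. Hk3, Slc2a3 and Bnip3l take most of the sum of their panels in every library, while Pfkl and Pfkp are near equal.

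Of the bifunctional enzymes that set fructose 2,6-bisphosphate, the strongest activator of phosphofructokinase, Pfkfb4 stood at 33.7, 33.6 and 45.7 FPKM in the Tshr+/+ libraries and 35.9, 48.9 and 38.5 in the Tshr-/- libraries. It was high in Tshr+/+ 3 and Tshr-/- 2, so the groups overlapped (0.13 ± 0.17, log2 difference ± SE). Pfkfb3, the isoenzyme with the highest kinase activity, stood at 17.6, 19.3 and 15.8 FPKM against 17.0, 16.0 and 14.1 (-0.16 ± 0.12). Within each genotype library 3 was the lowest for Pfkfb3, and the groups overlapped. Pfkfb4 took between 63.5% and 75.4% of the FPKM of the pair.

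In lower glycolysis, from triose phosphates to pyruvate, all 6 tested genes were below 0, with a median of -0.11 and 0 called. Pkm, the pyruvate kinase that makes pyruvate and ATP, was the most abundant at 515, 517 and 406 FPKM in the Tshr+/+ libraries and 440, 486 and 379 in the Tshr-/- libraries (-0.14 ± 0.16). Both libraries numbered 3 were lowest in their group, and the groups overlapped. The table has 1 row for Pkm, so its M1 and M2 splice forms were not told apart. Eno1, the enolase of most cells, stood at 216, 224 and 209 FPKM against 204, 165 and 184. Each Tshr-/- library lay below each Tshr+/+ library, though Tshr+/+ 3 and Tshr-/- 1 were close. The means were 216 ± 7.76 and 184 ± 19.8 FPKM (SD, n = 3 each), and the difference was -0.23 ± 0.12 (SE, log2, limma adjusted p = 0.9997). Over the alternatives the Eno1 difference stayed below 0, and without Tshr-/- 2 it was -0.16.

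Eno1 (chr4:150236721-150248879, GRCm38) has near-identical copies, and fragments can be split among them or, under some counting rules, dropped. Searching coding sequences against all annotated transcripts (at least 95% identity over at least 150 bases) found 3 copies, among them Eno1b at 99.4% identity. The copies held 680, 593 and 653 fragments in the Tshr+/+ libraries and 506, 2403 and 694 in the Tshr-/- libraries. In Tshr-/- 2, the library with the lowest Eno1, the copies took 16.2% of the fragments of the gene and copies together, against 2.78% to 3.37% in the other libraries. Gene and copies summed to 1201, 1241 and 1157 fragments per 1000000 of the library size used in the FPKM in the Tshr+/+ libraries and 1131, 1057 and 1022 in the Tshr-/- libraries. The groups of these sums did not overlap either, and the log2 ratio of their means was -0.17.

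Gapdh, the dehydrogenase often used as a reference gene, was the most variable of the genes described and is reported after its values were seen. It stood at 15.4, 51.6 and 8.19 FPKM in the Tshr+/+ libraries and 33.3, 8.71 and 8.60 in the Tshr-/- libraries. One library of each genotype was high, Tshr+/+ 2 and Tshr-/- 1, and the highest was 6.30 times the lowest. By comparison, Tpi1 (triose phosphate isomerase) ranged only from 53.6 to 60.2 FPKM and Pgk1 (phosphoglycerate kinase) from 177 to 220. Gapdh had 80 annotated copies, 72 of them with fragments, and the copies held between 15.0% and 54.4% of the fragments of gene and copies together. The gene itself held 1087, 3530 and 626 fragments against 2213, 505 and 716, while the copies held 880, 624 and 653 against 687, 603 and 697. Most of the counted spread between libraries was therefore on the gene row, and the sum of gene and copies still ran from 69.1 to 251 on that scale. Among copies at 100% identity, Gm7336 held 116 to 310 fragments in a library and Gm12671 held 0 in all. The sources used here do not give whether fragments matching several places were dropped, and dropped fragments would be missing from the sum as well. The level of Gapdh and its spread are therefore uncertain. Gapdh also lies over Iffo1 on the opposite strand, and the sources used here do not give whether counting used strand. As deposited, its level was far below that of Pgk1, the next enzyme of the pathway, in every library, a comparison under the same limits. Pgam1, the mutase before enolase, stood at 215, 179 and 150 FPKM against 177, 175 and 159.

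**Figure D4:**
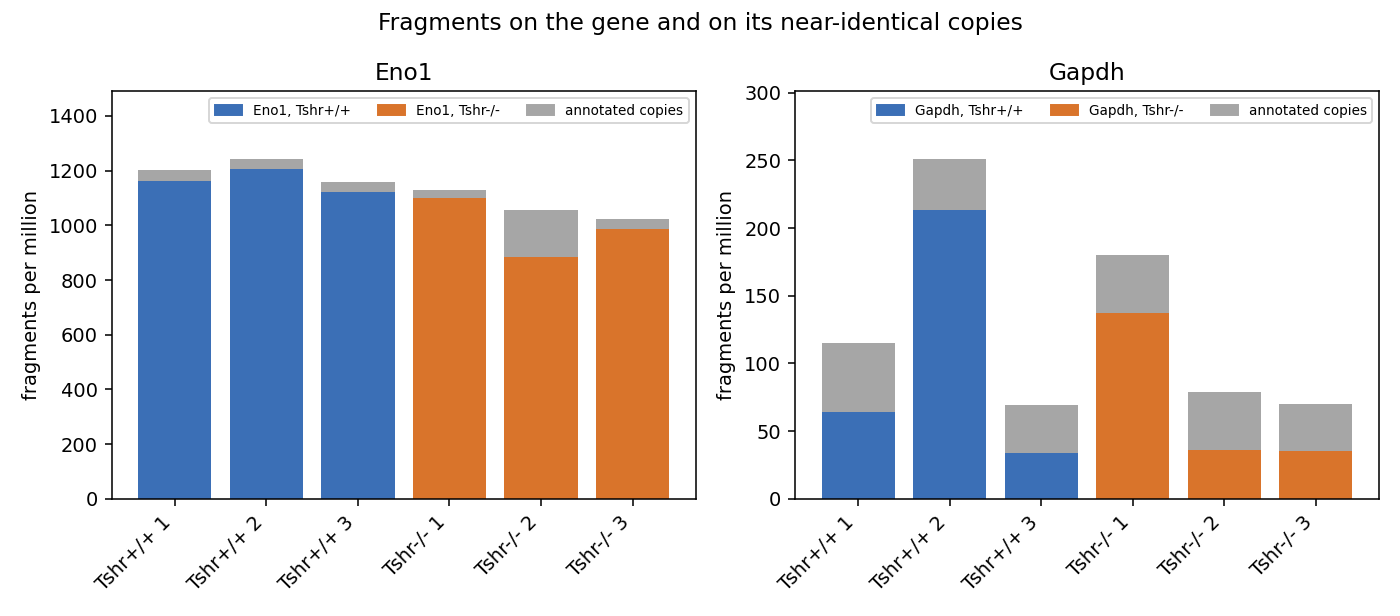
Fragments per 1000000 of library size on Eno1 (left) and Gapdh (right) and on their annotated near-identical copies (grey), by library; bars are stacked and start at 0. For Eno1 the totals run from 1157 to 1241 in the Tshr+/+ libraries and from 1022 to 1131 in the Tshr-/- libraries, with a larger grey part in Tshr-/- 2; for Gapdh, Tshr+/+ 2 and Tshr-/- 1 stand out through the gene itself.

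Pyruvate can be reduced to lactate or enter mitochondria. Ldha, the lactate dehydrogenase subunit that favours lactate, stood at 261, 289 and 183 FPKM in the Tshr+/+ libraries and 215, 229 and 169 in the Tshr-/- libraries. Within each number the Tshr-/- library was lower, but Tshr+/+ 3 lay below Tshr-/- 1 and 2, so the groups overlapped (-0.24 ± 0.21, log2 difference ± SE). Ldha made up between 91.8% and 95.6% of the FPKM of Ldha and Ldhb. Pdk1, a kinase that closes the mitochondrial entry and a HIF-1 target, was not tested, with 0.767 to 1.29 FPKM. Its relative Pdk3 took between 87.2% and 92.8% of the FPKM of the 4 PDH kinases.

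The pentose phosphate genes were all abundant, and 2 of the 4 were above 0 and 2 below, with a median of -0.01. Taldo1 (transaldolase, of the non-oxidative branch) had the highest mean of all genes described, at 469, 518 and 457 FPKM in the Tshr+/+ libraries and 499, 616 and 373 in the Tshr-/- libraries. The extremes were both Tshr-/- libraries, 616 FPKM in library 2 and 373 in library 3. Tkt, the transketolase of the same branch, stood at 229, 252 and 210 FPKM against 210, 239 and 180 (-0.14 ± 0.14), with overlap. G6pdx, the first and rate-limiting enzyme, stood at 176, 200 and 177 FPKM against 183, 184 and 170 (-0.04 ± 0.11). It varied little, with a coefficient of variation over the 6 libraries of 5.66% against a median of 13.3% for the 33 genes. Pgd, the second NADPH-producing enzyme, ranged from 126 to 181 FPKM, both in Tshr-/- libraries.

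Hif1a, the oxygen-regulated subunit of HIF-1, stood at 29.5, 24.3 and 14.6 FPKM in the Tshr+/+ libraries and 25.6, 20.3 and 19.7 in the Tshr-/- libraries. Tshr+/+ 1 was the highest and Tshr+/+ 3 the lowest, so the Tshr-/- libraries lay inside the range of the Tshr+/+ libraries (-0.01 ± 0.25). HIF-1 is regulated mainly through the stability of this protein, which RNA does not show. Egln1 (PHD2, the main oxygen sensor that marks HIF for degradation) stood at 10.8, 11.4 and 12.1 FPKM against 12.3, 11.0 and 13.2 (0.08 ± 0.11). Egln3, itself a HIF target, stood at 7.54, 6.58 and 7.51 FPKM against 7.17, 7.98 and 6.15 (-0.02 ± 0.12). For both hydroxylases the groups overlapped. Of the summed FPKM of the 3 hydroxylases, Egln2 took between 44.2% and 49.7%, Egln1 between 30.1% and 35.6% and Egln3 between 16.7% and 23.0%.

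The 7 hypoxia targets outside metabolism were split, 3 above 0 and 4 below, with a median of -0.07. Vegfa, the growth factor of blood vessels, was the most abundant at 60.6, 60.2 and 22.9 FPKM in the Tshr+/+ libraries and 47.4, 50.8 and 29.7 in the Tshr-/- libraries. Library 3 was low in both genotypes, and the 2 values of libraries 3 stood in the opposite order to those of libraries 1 and 2. The difference was -0.08 ± 0.40 (SE, log2), and it was -0.53 without Tshr+/+ 3 and 0.16 without Tshr-/- 3. Ankrd37, an ankyrin repeat gene induced in hypoxia, stood at 0.725, 1.22 and 1.02 FPKM against 0.364, 0.602 and 1.26. These values rest on 9 to 39 fragments in a library, and the gene lies over Ufsp2 on the opposite strand, which held a mean of 252 fragments against 23.3, so its differences between libraries are uncertain. Bnip3, a mitophagy receptor, stood at 3.65, 3.14 and 3.72 FPKM against 3.73, 4.97 and 3.29 (0.14 ± 0.15). Only Tshr-/- 2 stood apart, and upward.

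The remaining targets are given by their ranges. Bnip3l, the second mitophagy receptor of this family, took between 89.2% and 93.3% of the FPKM of the pair and ranged from 39.1 to 47.3 FPKM. Ndrg1, a differentiation and stress gene, had a mean of 11.4 FPKM and was lowest in Tshr-/- 3, at 9.65 FPKM. Higd1a, a mitochondrial protein induced by hypoxia, ranged from 4.56 to 5.92 FPKM. P4ha1, a collagen prolyl hydroxylase subunit, ranged from 2.45 to 4.22 FPKM. In all of these the groups overlapped.

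A pattern seen in many of these genes was a low value in the libraries numbered 3 of both genotypes. As deposited, library 3 was the lowest of its group in both genotypes for 19 of the 33 genes (57.6%), against 24.2% of all genes tested, and the highest in both for 1, Egln1, against 22%. Library 3 minus the mean of libraries 1 and 2 had a median of -0.17 (Tshr+/+) and -0.26 (Tshr-/-) on the log2 scale for these genes and of 0.00 and -0.01 for all genes. The 19 included all 3 transporters, both Pfkl and Pfkp, Ldha, Hif1a and Vegfa. Among the 33, the largest steps in the Tshr+/+ group were those of Gapdh (-1.68), Vegfa (-1.36), Pfkp (-1.26), Hif1a (-0.83) and Pfkl (-0.74). The pattern was not particular to the 33. As deposited, it held for 7 of 14 further tested HIF pathway genes and 5 of 10 of AMPK and glucose sensing. It also held for 6 of 15 further genes of glycolysis and transport and 3 of 4 markers of CD11b-positive cells. For pyruvate dehydrogenase and mitochondrial entry it held for 2 of 9, and for further pentose phosphate genes for 0 of 7. The count depended on scaling: with every library rescaled to the same FPKM total it was 4 of 33 (12.1%, against 8.84% of all genes), and with quantile scaling 9 of 33 (27.3%, against 19.5%). Slc16a3, Slc2a3, Vegfa and Ldha were in the set under all 3 scalings. Only in the libraries numbered 3 did the divisor in the FPKM exceed the fragment total (1.08 times in Tshr+/+ 3, 1.12 in Tshr-/- 3). A larger divisor lowers every FPKM of its library, and its part in the pattern was not tested. The deposited FPKM sum of Tshr-/- 3 was the smallest, 348454, against 395049 to 451384 in the other libraries. As deposited, that library was the lowest of all 6 for 18 of the 33 genes (54.5%), against 18.8% of all genes tested. It was the lowest for 2 of the 33 with equal totals (against 4.47% of all genes) and for 8 with quantile scaling (against 14.8%).

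Marker levels were set beside this pattern. Summed over 12 monocyte and macrophage markers, libraries 3 held 0.245% (Tshr+/+) and 0.274% (Tshr-/-) of fragments against 0.182% to 0.229% in the other 4, and library 3 was the highest of its group in both genotypes for 7 of these 12 markers. None of these markers was at 0 in all libraries. The 14 neutrophil markers took 11.5% and 9.56% in libraries 3 and between 10.8% and 12.4% in the others, so Tshr-/- 3 was the lowest and Tshr+/+ 3 inside the range. By gene the list was mixed: library 3 was lowest in both genotypes for 4 of the 14 and highest in both for 1. For Elane, Mpo, Prtn3 and Cxcr2 library 3 lay above the mean of libraries 1 and 2 in both genotypes. The 8 cell cycle markers held 0.183% and 0.209% of fragments in libraries 3 and 0.134% to 0.178% in the others. Fos, an immediate early gene known to rise when cells are handled, stood at 1080 and 923 FPKM in libraries 3 and between 492 and 684 in the others. It was the only one of 9 handling and stress markers with library 3 highest in both genotypes, and 4 had library 3 lowest in both: Fosb (158 and 193 FPKM against 201 to 389), Egr1, Hspa1a and Hspa1b. Summed, the 9 held 0.703% and 0.671% of fragments in libraries 3 and 0.526% to 0.692% in the others. None of them was at 0 in all libraries. The part of cell makeup and of handling in the levels described here was not tested, and in bulk RNA fewer cells of a type and less RNA per cell cannot be told apart. The median GC content of the 33 genes was 53.5% against 50% for all, and in the fifth of all genes richest in GC the median step of library 3 was -0.02 and -0.03.

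**Figure D5:**
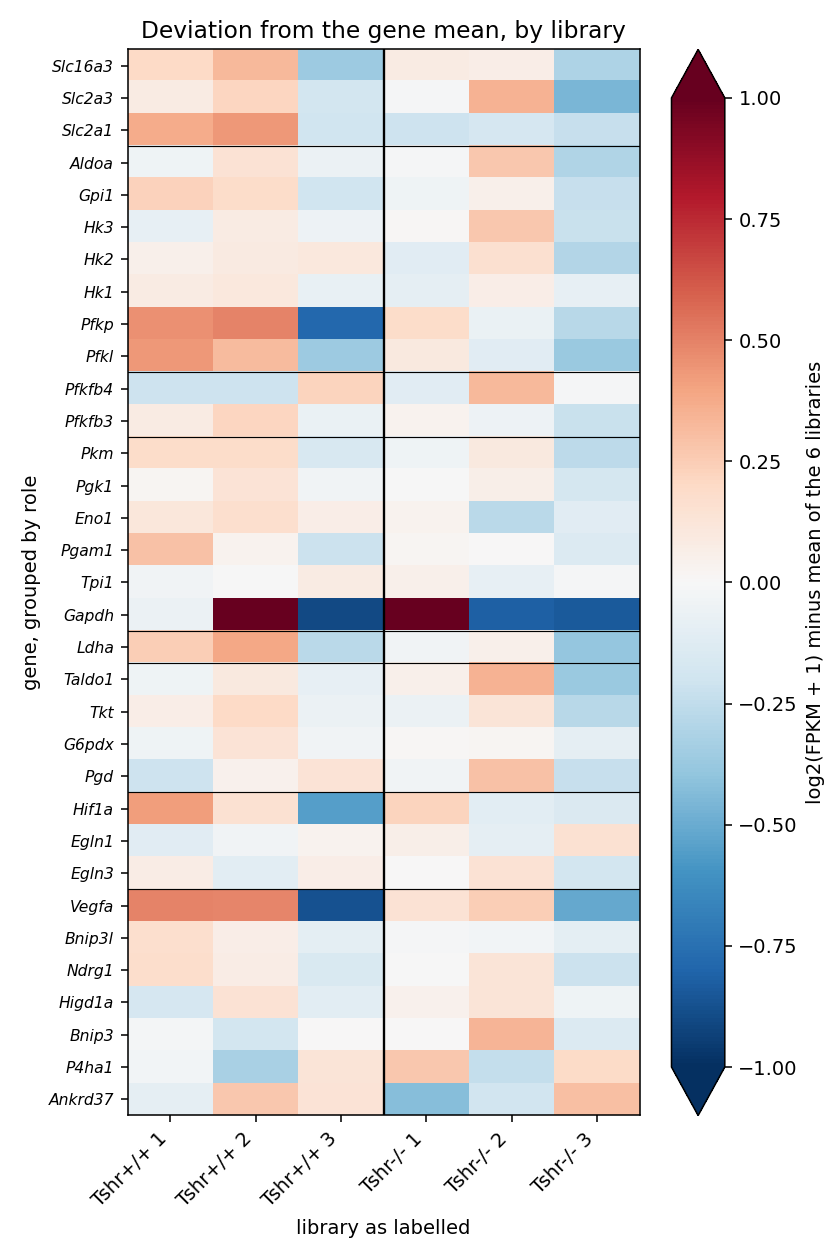
Deviation of log2(FPKM + 1) from the mean of the gene over the 6 libraries, for the 33 tested genes in order of role; red is above and blue below the mean, the colour scale ends at 1 on either side, and the black line parts the genotypes. The columns of Tshr+/+ 3 and Tshr-/- 3 are mostly blue and those of Tshr+/+ 1 and 2 mostly red; Gapdh runs past the end of the scale in Tshr+/+ 2 and Tshr-/- 1.

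Libraries were also compared within numbers, where a pair means only the same number in the titles, as the labels state no pairing. In all 3 pairs 11 of the 33 genes were lower in the Tshr-/- library (33.3%), against 14.5% of all genes tested. Higher in all 3 was 1 gene, P4ha1 (3.03%, against 12.2%). The 11 were Slc2a1, Hk1, Gpi1, Pfkl, Pfkfb3, Pgk1, Eno1, Pkm, Ldha, Tkt and Bnip3l. They were named after their values were seen, and the steps were small: in pair 3, Hk1, Gpi1, Pfkl, Slc2a1 and Bnip3l hardly differed. Slc2a1 differed by -0.58 and -0.61 in pairs 1 and 2 and by -0.03 in pair 3, and Ldha by -0.28, -0.34 and -0.12. With the number as a block in limma, 0 of the 33 genes and 0 of all genes passed the threshold, and the smallest adjusted p of any gene was 0.602.

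Other genes of the same pathways, from lists without the genes above, were also without a call. Of 27 further genes of glycolysis and transport 15 were tested, 7 above and 8 below 0, with a median of -0.03 and 0 passing. Ldhb, the lactate dehydrogenase subunit that favours pyruvate, stood at 15.3, 13.4 and 16.3 FPKM in the Tshr+/+ libraries and 11.2, 10.9 and 13.7 in the Tshr-/- libraries. Tshr-/- 3 lay above Tshr+/+ 2, so the groups overlapped (-0.31 ± 0.13, limma adjusted p = 0.9997). Gpd1l, a relative of glycerol phosphate dehydrogenase, stood between 17.5 and 22.0 FPKM in the Tshr+/+ libraries and between 15.9 and 16.9 in the Tshr-/- libraries, without overlap, at a limma adjusted p of 0.9997. Adpgk, an ADP-dependent glucokinase, had the highest mean of these, with 171 to 212 FPKM. Of 8 further pentose phosphate genes 7 were tested, 5 above and 2 below 0, with 0 passing; Pgls, the lactonase, ranged from 24.2 to 31.1 FPKM and Prps2, which uses the ribose product, from 1.73 to 3.15. Of 12 genes of pyruvate dehydrogenase and mitochondrial entry 9 were tested, 5 above and 4 below with 0 passing, and its subunits Pdhb and Dld ranged from 18.6 to 24.9 and from 15.7 to 20.6 FPKM.

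Of 24 further genes of the HIF pathway 14 were tested, 8 above and 6 below 0 with a median of 0.04, and 0 passed. Mxi1, a MAX-binding repressor induced by HIF, stood at 27.6, 27.2 and 25.9 FPKM in the Tshr+/+ libraries and 21.9, 26.7 and 19.0 in the Tshr-/- libraries, and the groups overlapped at Tshr-/- 2. Vhl, which takes hydroxylated HIF to degradation, ranged from 8.78 to 16.8 FPKM, and Cited2, a competitor of HIF for its coactivator, from 120 to 141. The other alpha subunits Epas1 and Hif3a and the targets Adm, P4ha2 and Stc2 stood at or below 0.458 FPKM in every library. Of 13 genes of AMPK and glucose sensing 10 were tested, 5 above and 5 below, and 0 passed. Prkaa1, a catalytic subunit of AMPK, stood at 9.73, 10.6 and 11.9 FPKM against 11.8, 12.3 and 12.6, with overlap at Tshr+/+ 3 (0.18 ± 0.11). Stk11, the upstream kinase, ranged from 60.8 to 96.3 FPKM and Txnip, a glucose-induced brake on glucose uptake, from 77.3 to 175.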

How the data were processed

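RNA of CD11b-positive bone marrow cells was sequenced in 6 libraries, 3 per genotype, from a SMARTer mRNA kit, per the labels' protocols. The authors deposited 1 FPKM value per gene and library. Per the submitters' processing notes the build was GRCm38 (mm10). The aligner, counting tool and strand use were not given in the sources used here. Columns headed HO were read as Tshr-/-. FPKM times gene length were whole multiples of 1 step in 100% of values (tolerance 0.01), so fragments were computed; 1 fragment of a 1 kb gene was worth between 0.0496 and 0.0713 FPKM.

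FPKM as deposited were compared on log2(FPKM + 1), which understates changes of low genes, for genes reaching 1 FPKM in at least 3 libraries. The fit was limma 3.58.1 (R 4.3.3, two-sided, variance trend, Benjamini-Hochberg over 10913 genes, threshold 0.05). It was also run on simulated counts that had no effect shared by the genes of a library. That run therefore does not give the power or the error rate in these data. Copies were found with BLAST 2.17.0. Deviations from the group means correlated over genes between same-numbered libraries (0.24, 0.26 and 0.47). Differently numbered libraries were not compared in this way and the labels state no pairing, so these values do not show that the mice were paired. Comparisons within numbers and the replicate block rest on the numbers in the titles alone. Of the genes described, 21 rows overlap 30 other annotated genes, 18 with an opposite strand.

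The genes and lists were chosen with earlier results of these data known. In each role the values name the pair of genes lowest in p, the gene highest in mean FPKM and any whose groups did not overlap, and in other lists the same without the last; all other genes given with values were named after their values were seen. Alternatives were another pseudocount, other filters, 2 other scalings, library weights, voom on fragments, a replicate block and libraries left out. No sequence of proteins was used.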

Additional observations from a re-analysis of the deposited data

How the results depend on the processing

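With 3 libraries per genotype, small differences could not be told from the spread between animals. None of the 33 genes passed the threshold under any alternative run (smallest limma adjusted p 0.0625, Slc2a1 with library weights), and 14 of 33 kept their sign under every one. With the replicate block, limma called 0 genes and 0 of the 33, and no call changed. The count of genes called among all tested, 0, became 24 with library weights, 2 without Tshr-/- 3 and 18 without both libraries numbered 3, a choice made after seeing the data. Leaving out Tshr-/- 1 and 2 left Tshr-/- 3, which had the smallest FPKM sum, as the only library of its group. The median log2 difference was then -0.44 for the transporters and -0.28 for the pentose phosphate genes, values that describe that library alone. Leaving out Tshr-/- 3 moved the median of the hypoxia targets to 0.11.

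The following differences turned sign; the cause was not tested. With equal totals Aldoa was at 0.024, Egln3 at 0.020, G6pdx at 0.011, Hif1a at 0.036 and Tpi1 at 0.019. With quantile scaling Aldoa was at 0.040, G6pdx at 0.012, Hif1a at 0.033, Pgam1 at 0.0021 and Tpi1 at 0.032. With library weights Egln3 was at 0.048, Higd1a at -0.0045, Hk3 at -0.017, Pgd at -0.00099, Taldo1 at -0.015 and Tpi1 at 0.036. Without both libraries 3 Aldoa was at 0.078, Egln3 at 0.091, Slc2a3 at 0.021 and Tpi1 at 0.0020. Without Tshr-/- 1 and 2, which left only Tshr-/- 3 in its group, Ankrd37 was at 0.19, Bnip3 at -0.070, Hk3 at -0.21, Pgd at -0.22 and Taldo1 at -0.37. With 1 library left out the differences ran from -0.17 to 0.11 for Aldoa, from -0.10 to 0.064 for Egln3, from -0.073 to 0.019 for G6pdx, from -1.05 to 0.26 for Gapdh, from -0.29 to 0.19 for Hif1a, from -0.091 to 0.15 for Hk3, from -0.16 to 0.027 for Ndrg1, from -0.0024 to 0.27 for Pfkfb4, from -0.53 to 0.11 for Pfkp, from -0.20 to 0.052 for Pgam1, from -0.12 to 0.14 for Pgd, from -0.32 to 0.026 for Slc16a3, from -0.27 to 0.13 for Slc2a3, from -0.16 to 0.21 for Taldo1, from -0.065 to 0.0021 for Tpi1 and from -0.53 to 0.16 for Vegfa.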
